A study of Mus musculus with 18 samples.

Results

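Prkcd, Tcf7l2, Lef1, Gbx2, Ramp3, Rora, Tnnt1 and Slc17a6 are 8 genes known for their expression in neurons of the thalamus, the relay nuclei that lie in front of and above the substantia nigra. They were taken by symbol from the 55270 genes of the deposited table, and all 8 were present and passed the filter on low values. The study sequenced polyA RNA from the substantia nigra of 18 mice, a midbrain nucleus whose dopaminergic neurons project to the striatum. The 3 groups of 6 wild-type (WT) mice were intact mice, mice overexpressing green fluorescent protein from an adeno-associated virus (AAV-GFP), and mice overexpressing SIRT3, a mitochondrial deacetylase, from the same kind of virus (AAV-SIRT3). All were 3 months old, and the AAV mice had received the virus about a month earlier. The labels name no treatment for the intact mice. The viral serotype, promoter and injected cells, the mouse strain and the borders of the dissected tissue are not given in the sources used here.

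Neurons of the dorsal thalamus are mostly glutamatergic, and they load their vesicles through the transporter encoded by Slc17a6 (VGLUT2). Their identity depends on homeodomain and high-mobility-group transcription factors, among them GBX2, which acts in the formation of thalamic nuclei and their axons, and TCF7L2 and LEF1, which act with beta-catenin in Wnt signalling and stay expressed in adult thalamus. In the ventral midbrain the dopaminergic neurons are instead marked by Th and Slc6a3, while Slc17a6 is also used by other glutamatergic neurons of the midbrain and subthalamus. Rora is likewise widely expressed outside the thalamus, so it and Slc17a6 are among the less specific markers of the set.

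The start regions of 4 of the genes are shown because the 8 genes varied together across libraries, and so that a reader can see whether their starts share a common short motif. Promoter windows ran from 250 bases before to 50 bases after each annotated start. All 8 genes matched the RefSeq table for GRCm38.p6, with 14 windows in all, because some genes have more than 1 start. Each sequence is written 5′ to 3′ on the gene's own strand in lower case, with the motif found in capitals. The Tnnt1 window lies at chr7:4515926-4516225 on the minus strand, the Prkcd window at chr14:30626159-30626458 on the minus strand, the Slc17a6 window, its second start, at chr7:51624387-51624686 on the plus strand, and the Gbx2 window at chr1:89931127-89931426 on the minus strand.
Tnnt1: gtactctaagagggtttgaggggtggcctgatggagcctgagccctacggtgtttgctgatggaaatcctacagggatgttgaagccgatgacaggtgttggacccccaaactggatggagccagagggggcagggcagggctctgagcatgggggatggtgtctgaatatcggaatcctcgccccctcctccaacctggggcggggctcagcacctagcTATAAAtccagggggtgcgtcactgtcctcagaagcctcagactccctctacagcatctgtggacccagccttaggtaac
Prkcd: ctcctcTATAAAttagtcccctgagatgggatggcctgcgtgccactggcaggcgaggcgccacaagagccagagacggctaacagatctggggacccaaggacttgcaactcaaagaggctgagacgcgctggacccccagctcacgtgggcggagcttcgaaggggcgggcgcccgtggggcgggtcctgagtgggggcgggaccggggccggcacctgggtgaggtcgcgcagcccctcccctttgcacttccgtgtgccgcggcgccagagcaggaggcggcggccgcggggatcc
Slc17a6: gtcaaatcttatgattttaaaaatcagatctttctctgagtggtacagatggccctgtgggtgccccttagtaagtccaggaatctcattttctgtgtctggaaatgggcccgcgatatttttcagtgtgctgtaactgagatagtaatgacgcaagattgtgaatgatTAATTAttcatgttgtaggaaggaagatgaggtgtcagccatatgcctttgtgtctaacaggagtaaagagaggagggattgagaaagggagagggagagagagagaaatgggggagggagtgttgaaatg
Gbx2: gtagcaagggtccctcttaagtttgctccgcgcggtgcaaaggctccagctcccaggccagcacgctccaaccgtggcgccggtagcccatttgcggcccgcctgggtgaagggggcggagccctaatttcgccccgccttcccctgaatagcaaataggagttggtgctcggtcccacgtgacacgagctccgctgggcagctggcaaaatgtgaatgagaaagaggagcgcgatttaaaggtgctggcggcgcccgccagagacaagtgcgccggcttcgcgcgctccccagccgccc
TATAAA, the core of a common promoter element, stands 30 bases before the start of Tnnt1 and 244 bases before that of Prkcd. TAATTA, the core bound by many homeodomain proteins, stands 81 bases before the second start of Slc17a6. The Gbx2 window holds none of the 4 motifs searched and is shown for contrast.

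On either strand, the TCF/LEF core CTTTGAT was in 0 of the 14 windows and in 3.73% of all 32851 mouse windows of that length. The nuclear receptor core AGGTCA, which RORA recognises after an A/T-rich stretch, was in 0 of 14 and in 16.3% of all windows. TAATTA, its own reverse complement, was in 1 of 14 against 5.29%, and TATAAA, which was added after the sequences had been seen, in 4 of 14 against 13.6%. No motif was shared by all 8 genes in these windows, which says only that these letters are not in them.

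In GENCODE M21 (GRCm38, the build of mm10) the genes lie on 7 chromosomes, and all 8 are protein-coding. Prkcd lies on chromosome 14 from 30595354 to 30626210, Tcf7l2 on 19 from 55741820 to 55933654, Lef1 on 3 from 131110471 to 131224356 and Gbx2 on 1 from 89927956 to 89931179. Ramp3 lies on 11 from 6658521 to 6677475, Rora on 9 from 68653786 to 69388246, and Tnnt1 and Slc17a6 share chromosome 7, from 4504570 to 4516382 and from 51622006 to 51671119. The values are read counts over whole genes. Exons of 4 genes overlap exons of another gene on the opposite strand. Gbx2 overlaps D130058E05Rik, which had a mean of 179.6 normalised reads, and since the strand setting is not given in the sources used here, their reads cannot be told apart. Ramp3 overlaps the pseudogene Gm11978 (mean 6.06), Rora overlaps Gm15511 (mean 0.558), and Lef1 overlaps Gm43352, whose level is not analysed here.

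The libraries held 47.2 to 64.7 M (megareads) assigned to genes, and no 2 replicates were as alike as repeat counts of 1 library would be. Reads counted for the mouse gene Sirt3 were at a similar level in the 3 groups. Mean normalised reads ± SD over 6 libraries were 1775 ± 92.4 with AAV-GFP and 1937 ± 79.4 with AAV-SIRT3, beside 1824 ± 66.3 for intact mice. The contrast of the 2 viruses was 0.126 on the log2 scale (SE 0.0422) and was not called (limma adjusted p = 0.183). Its unadjusted limma p was 0.00683, and 2964 of the 19443 genes tested had one under 0.05. Whether transcripts of the delivered SIRT3 are counted in these values was not tested. The labelled tissue was checked with Th, the enzyme that limits dopamine synthesis, which was between 3673 and 6637 normalised reads in all 18 libraries. Before any comparison, 3 of the 6 intact libraries, replicates 1, 3 and 5, stood apart in the thalamic genes. For each of the 8 genes these were the 3 lowest of the 18 libraries. Over all 19443 genes tested, 406 (2.09%) had the same 3 libraries lowest and 145 (0.746%) had them highest. Those libraries were picked out by these values, so the count is a description and carries no test. Their depth was 60.9, 55.6 and 47.2 M reads, against 60.0, 53.9 and 53.0 M in the other intact libraries.

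Among the transcription factors, Tcf7l2 was at 4038, 9906, 5139, 6663, 4957 and 7886 normalised reads in intact replicates 1 to 6. Its AAV-GFP libraries ran from 7459.9 to 10422 with a median of 8706, and its AAV-SIRT3 libraries from 8503 to 11388 with a median of 9409. Intact replicates 1, 3 and 5 were thus below every other library, while intact replicate 2 lay inside the range of both AAV groups. Lef1, the related factor, was at 603, 1457, 641, 1149.9, 705 and 1325 in the intact replicates. It ran from 1359 to 1738 (median 1503) in AAV-GFP and from 1276 to 1935 (median 1573) in AAV-SIRT3. Only intact replicate 2 reached the AAV-GFP range, and intact replicates 2 and 6 reached that of AAV-SIRT3.

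Gbx2, the homeodomain factor and the least abundant of the set in reads, was at 186, 664, 271, 466, 248 and 630.3 normalised reads in intact replicates 1 to 6. The AAV-GFP libraries ran from 553 to 802 (median 631), and the AAV-SIRT3 libraries from 582 to 856 (median 696). Intact replicates 2 and 6 lay inside both ranges and intact replicate 4 lay below both. Rora, which encodes a nuclear receptor, was at 7858, 14541, 7362, 11416, 7349 and 14047 in intact replicates 1 to 6. It ran from 10782 to 14576 (median 12072) in AAV-GFP and from 9614 to 13630 (median 12502.5) in AAV-SIRT3. The 3 higher intact libraries lay within the AAV-GFP range, and intact replicates 2 and 6 were above every AAV-SIRT3 library.

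Among the signalling genes, Prkcd encodes protein kinase C delta and Ramp3 a partner protein of calcitonin-family receptors. Prkcd was at 7651, 25594, 7763, 18060.2, 9445 and 22522 normalised reads in intact replicates 1 to 6. It ran from 19928 to 25987 (median 22734) in AAV-GFP and from 18177 to 26600.1 (median 22199) in AAV-SIRT3. The 6 intact values thus fell into 3 at 9445 or less and 3 within or just below the AAV ranges. Ramp3 was at 706, 2546, 1059.9, 1776, 1117 and 2133 in the intact libraries, from 1963 to 2842 (median 2382) in AAV-GFP and from 2266 to 2993 (median 2636) in AAV-SIRT3. Its pattern was that of Prkcd, with intact replicate 4 between the low libraries and the AAV groups.

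Tnnt1, which encodes the troponin T of slow muscle and is a familiar marker of thalamic neurons, was at 1037, 2552, 689.6, 1806, 852 and 2153 in intact replicates 1 to 6. It ran from 2079 to 2602 (median 2447) in AAV-GFP and from 2071 to 2919 (median 2523) in AAV-SIRT3. The intact libraries spanned 3.70-fold and the AAV-GFP libraries 1.25-fold. Slc17a6, the vesicular glutamate transporter, was at 16839, 20184, 17404, 17669, 15541 and 20529.7 in intact replicates 1 to 6. It ran from 18743 to 21036 (median 19697) in AAV-GFP and from 18358 to 21903 (median 20401) in AAV-SIRT3. Intact replicates 1, 3 and 5 were lowest here too, but intact replicate 4 was only slightly above them. In each of the 8 genes the 2 AAV groups overlapped each other, and at least 1 intact library lay inside the range of an AAV group. In whole tissue, fewer cells of a type and less RNA per cell cannot be told apart, and this holds for every value given here.

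**Figure D1:**
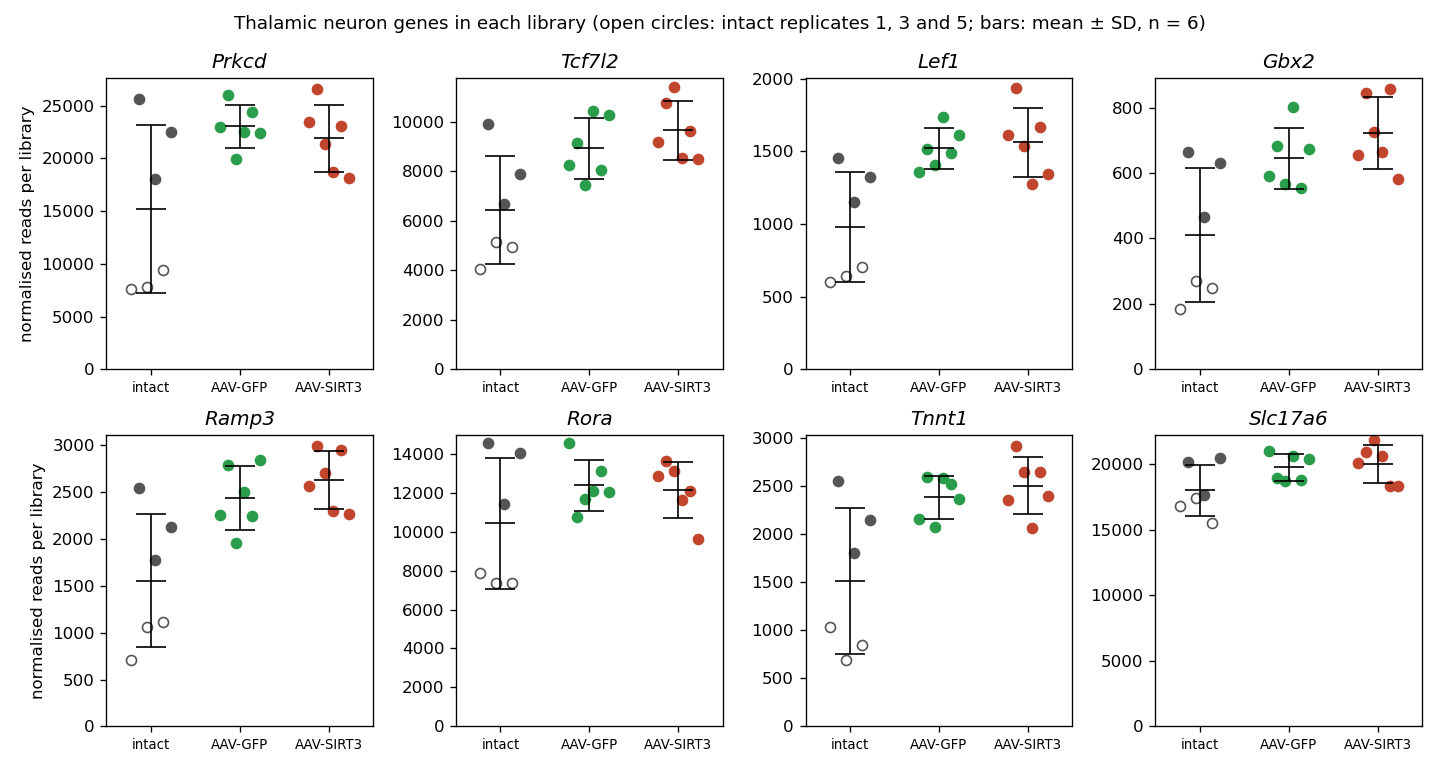
Normalised reads of the 8 thalamic neuron genes (y axis, 1 panel a gene) in each library of the 3 groups (x axis), with the mean ± SD of 6 libraries; open circles are intact replicates 1, 3 and 5. The open circles are the lowest points in every panel, and for Prkcd they sit at 7651, 7763 and 9445 while the other 15 libraries are at 18060.2 or more.

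Divided by exon length, Prkcd and Slc17a6 were the most abundant of the 8 genes and Gbx2 and Lef1 the least. In normalised reads per kilobase of exon (mean ± SD, n = 6), the intact libraries held Slc17a6 at 3339 ± 361, above Prkcd at 2737 ± 1432. With AAV-GFP the order turned, with Prkcd at 4154 ± 369 and Slc17a6 at 3664 ± 192, and with AAV-SIRT3 they stood at 3947 ± 573 and 3715 ± 266. The intact and AAV-SIRT3 levels of these neighbours differ by less than their spread. Ramp3 came next, at 1128 ± 515, 1765 ± 248 and 1906 ± 226 per kilobase in intact, AAV-GFP and AAV-SIRT3. Rora, Tcf7l2 and Tnnt1 were at 798 ± 257, 733 ± 249 and 687 ± 346 per kilobase in intact libraries and did not differ beyond their spread. Gbx2 was at 189 ± 94.6 and Lef1 at 112 ± 42.8 per kilobase in intact libraries, and at 296 ± 43.4 and 173 ± 15.8 in AAV-GFP.

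Setting AAV-SIRT3 beside AAV-GFP asks what SIRT3 adds to the virus. None of the 8 thalamic genes passed in it, with log2 fold changes from -0.08 for Prkcd to 0.16 for Gbx2. By limma 0 of 8 were called, against 0.113% of all genes tested (22 of 19443, with 0.036% higher in AAV-SIRT3). At an unadjusted limma p under 0.05 there were 0 of 8, beside 2964 of all genes. The count tests edgeR and DESeq2 on the recovered reads also called 0, beside 0.123% and 1.56% of all genes. The smallest adjusted p was that of Tcf7l2 (0.12, SE 0.153, limma adjusted p = 0.765). For Prkcd the difference was -0.08 (SE 0.231) and for Gbx2 0.16 (SE 0.232), so the precision is that of a shared spread that includes the divided intact group. Slc17a6 was the most precisely measured of the set, at 0.02 (SE 0.0608).

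In AAV-SIRT3 against intact mice, 6 of the 8 genes rose. Gbx2 rose by 0.96 on the log2 scale (SE 0.232), Tnnt1 by 0.88 (SE 0.225), Ramp3 by 0.88 (SE 0.21) and Lef1 by 0.75 (SE 0.175). Their limma adjusted p-values were 0.00613, 0.00846, 0.00572 and 0.00512. Prkcd rose by 0.69 (SE 0.231, limma adjusted p = 0.0364) and Tcf7l2 by 0.65 (SE 0.153, limma adjusted p = 0.00566). Rora, at 0.28 (SE 0.146, limma adjusted p = 0.187), and Slc17a6, at 0.16 (SE 0.0608, limma adjusted p = 0.0673), did not pass. In this comparison 21.7% of all genes tested were called in either direction, and 11.3% (2206 genes) were higher in AAV-SIRT3. At an unadjusted limma p under 0.05 there were 7 of the 8, beside 6788 of the 19443 genes tested. The median log2 fold change of the 8 genes was 0.72, beside -0.00 over all genes tested.

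In AAV-GFP against intact mice all 8 values were above 0 and 1 of the 8 genes passed. At an unadjusted limma p under 0.05 there were 8 of 8, beside 3707 of the 19443 genes tested. Lef1 rose by 0.72 (SE 0.175, limma adjusted p = 0.0378). Of all genes tested, 1.84% were called in either direction and 0.823% (160 genes) were higher in AAV-GFP. Tnnt1 was at 0.82 (limma adjusted p = 0.0604), Gbx2 at 0.80 (0.0700), Prkcd at 0.77 (0.0767), Ramp3 at 0.77 (0.0589) and Tcf7l2 at 0.53 (0.0697). Both contrasts with intact mice share their 6 control libraries, so their values are given side by side and not as separate evidence. Rora was at 0.30 and Slc17a6 at 0.14, the smallest of the set here as well. The median of the 8 was 0.74, beside 0.00 over all genes.

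Without intact replicates 1, 3 and 5, a choice made after seeing the data, 0 of the 8 genes were called in any of the 3 comparisons, while limma still called 1686 genes (8.67%) in AAV-SIRT3 against intact, 10 (0.0514%) in AAV-GFP against intact and 17 (0.0874%) in AAV-SIRT3 against AAV-GFP. This fit has 3 intact libraries in place of 6. At an unadjusted limma p under 0.05 it held 4 of the 8 genes in AAV-SIRT3 against intact, beside 5111 of the 19443 genes tested. It held 0 of 8 in AAV-GFP against intact, beside 2253 of all genes, and 0 of 8 in AAV-SIRT3 against AAV-GFP, beside 2964. The median log2 fold change of the 8 fell to 0.23 in AAV-SIRT3 against intact and to 0.14 in AAV-GFP against intact. Gbx2 and Ramp3 kept 0.30 each in AAV-SIRT3 against intact, Tcf7l2 0.26 and Lef1 0.25, while Prkcd was at -0.01 and Rora at -0.13. The 3 libraries were picked for their low values of these same genes, so a smaller difference was fixed by the choice, and these values describe the remaining libraries and carry no test.

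**Figure D2:**
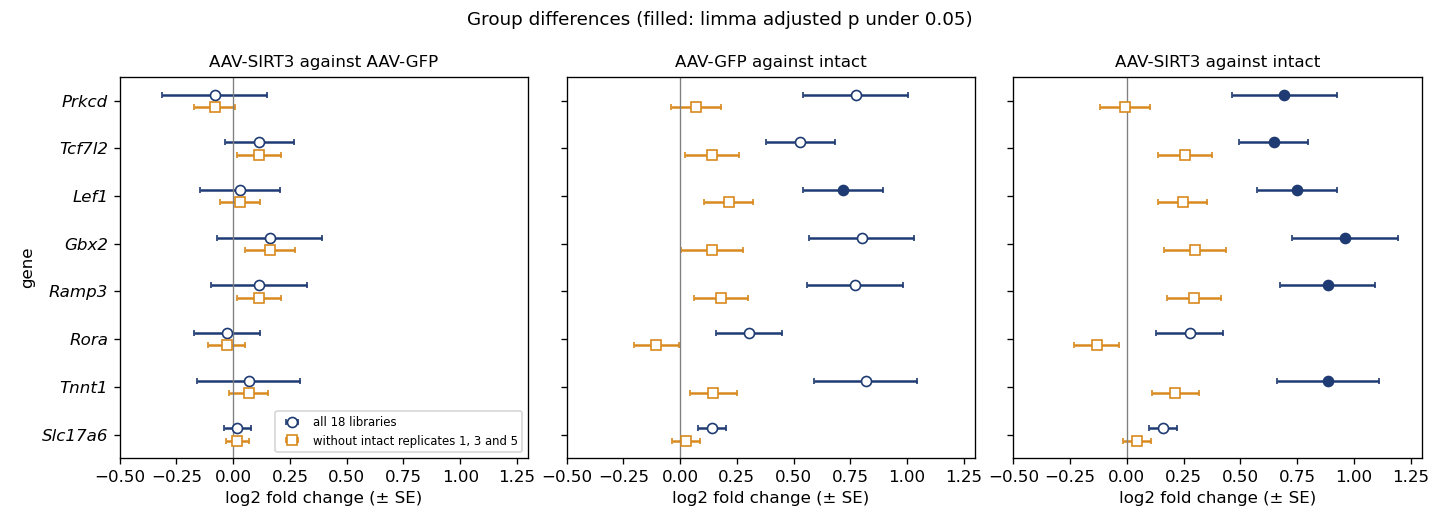
Log2 fold change ± SE (x axis) of the 8 genes (y axis) in the 3 comparisons, from all 18 libraries (circles) and without intact replicates 1, 3 and 5 (squares); filled symbols passed limma at an adjusted p under 0.05. In AAV-SIRT3 against intact 6 circles are filled and 0 squares, and Prkcd moves from 0.69 to -0.01.

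Leaving out 1 library at a time, Tcf7l2, Lef1, Gbx2, Ramp3 and Tnnt1 passed in AAV-SIRT3 against intact in 18 of 18 fits. Prkcd passed in 11 of 18. It was lost without intact replicate 1, 3 or 5 or without AAV-SIRT3 replicate 1, 2, 3 or 5 (limma adjusted p up to 0.0973), and it was not called by edgeR (adjusted p = 0.110) or DESeq2 (adjusted p = 0.105) on the recovered reads. Slc17a6 passed in 3 of 18, without intact replicate 2 or 6 or AAV-SIRT3 replicate 6. In AAV-GFP against intact, Lef1 passed in 10 of 18, and was lost without intact replicate 1, 3 or 5 or without AAV-GFP replicate 2, 3, 4, 5 or 6 (limma adjusted p up to 0.1001). Without intact replicate 2 this comparison called 6 of the 8 genes, beside 2.38% of all genes tested (462), and without intact replicate 6 it also called 6, beside 2.78% (540).

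The 8 genes spread most within the intact group. The SD of log2 values over 6 libraries had a median over the 8 genes of 0.63 for intact mice, 0.14 with AAV-GFP and 0.18 with AAV-SIRT3, beside medians of 0.14, 0.15 and 0.14 for all genes tested. In intact libraries it ran from 0.16 for Slc17a6 to 0.79 for Prkcd. Ranked among all genes tested by the SD within groups, Prkcd stood at percentile 82.8, Gbx2 at 82.5, Tnnt1 at 81.9 and Ramp3 at 80.0, with Slc17a6 at 39.5. This ranking did not match genes by level, so it does not compare them with equally abundant genes. The within-group SD was 0.480 for Prkcd, beside a median of 0.146 over all genes tested. Over all 18 libraries the highest value was 4.61 times the lowest for Gbx2, 4.24 for Ramp3, 4.23 for Tnnt1, 3.48 for Prkcd, 3.21 for Lef1, 2.82 for Tcf7l2, 1.98 for Rora and 1.41 for Slc17a6. Rora and Slc17a6 had the narrowest ranges, and whether this has to do with where they are expressed was not tested.

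**Figure D3:**
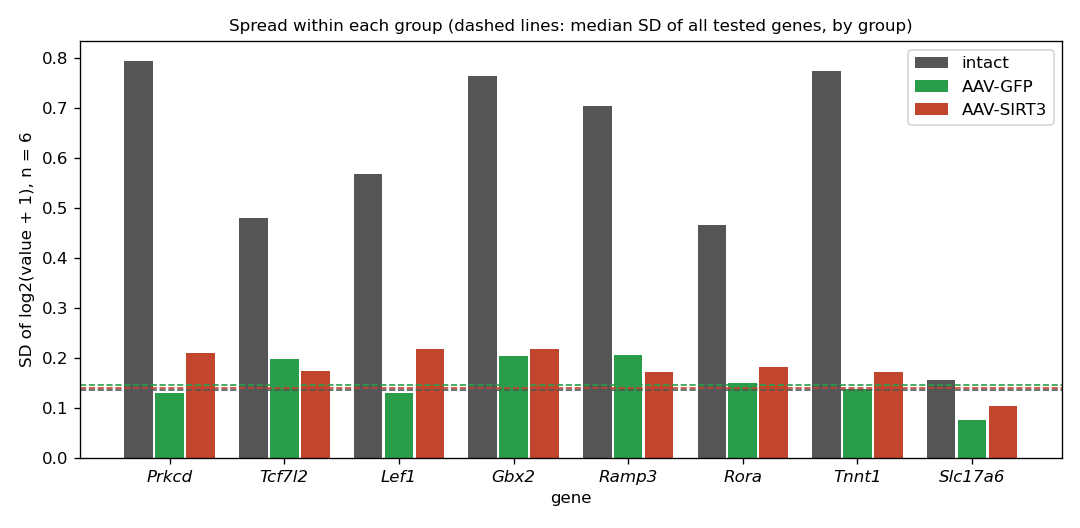
SD of log2(value + 1) over 6 libraries (y axis) for each of the 8 genes (x axis) in the 3 groups; dashed lines are the median SD of all genes tested in each group. Intact bars reach 0.79 for Prkcd, and the AAV bars stay at or below 0.22.

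Whether the genes also moved together outside the intact group was examined in the 12 AAV libraries, since the intact libraries fall into clusters of 3 and allow no pooled correlation. Values were centred on their group means. Over the 28 pairs of the 8 genes, Pearson's r across the 12 libraries had a median of 0.60 and ran from 0.04 to 0.81, as a description. Within the AAV-SIRT3 group of 6 all 28 pairs were positive (median 0.73), and within AAV-GFP 20 of 28 (median 0.50). In AAV-GFP Rora was negative with Prkcd, Tcf7l2, Lef1, Gbx2, Ramp3 and Tnnt1, from -0.09 with Prkcd to -0.41 with Lef1. It was at 0.52 with Slc17a6. The other negative pairs were Slc17a6 with Prkcd (-0.09) and with Tnnt1 (-0.06). Prkcd was set against 16 genes in 1 family, its 7 fellow thalamic genes and 9 markers of other cells. In the 12 AAV libraries the largest r were Lef1 at 0.75 (Spearman's rho 0.58, permutation p = 0.0155, adjusted p = 0.0827), Tnnt1 at 0.74 (rho 0.61, permutation p = 0.0127, adjusted p = 0.0827) and Ramp3 at 0.73 (rho 0.55, permutation p = 0.00855, adjusted p = 0.0827). By permutation, 0 of the 16 passed after adjustment. Without the 2 libraries farthest from the median of Prkcd, r was 0.54 for Lef1, 0.72 for Tnnt1 and 0.64 for Ramp3. Th, at -0.12 (rho -0.05, permutation p = 0.661, adjusted p = 0.997), showed no detectable relation there. With the 6 intact libraries included 7 of the 16 passed, 6 thalamic genes and Th, a count that rests on the intact clusters. Th did not pass there by Spearman's rho (-0.59, permutation adjusted p = 0.0881). Without the 2 of these 18 libraries farthest from the median of Prkcd, 6 passed by r, all thalamic. Th was then at -0.51 (permutation adjusted p = 0.214). By rho the smallest permutation adjusted p in that set was 0.0608.

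**Figure D4:**
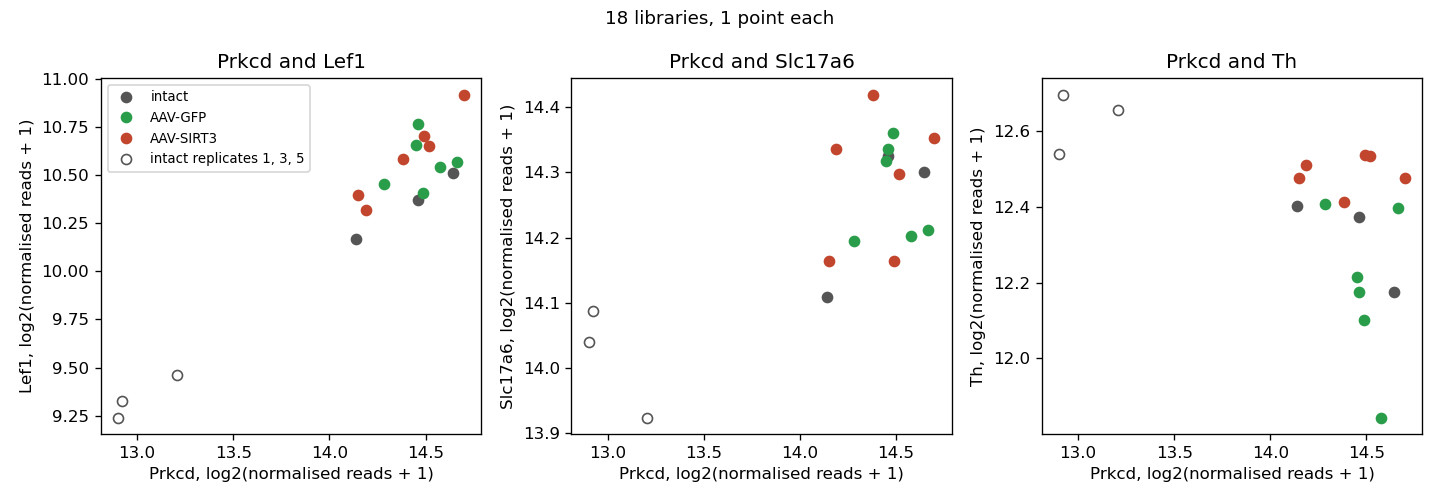
Log2(normalised reads + 1) of Lef1, Slc17a6 and Th (y axes) against that of Prkcd (x axis), 1 point a library, with intact replicates 1, 3 and 5 as open circles. The open circles lie apart at low Prkcd in all 3 panels, low in Lef1 and Slc17a6 and high in Th, and the AAV libraries alone gave an r of 0.75 for Lef1 and -0.12 for Th.

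A separate list of 16 other thalamic genes, which holds axon-guidance, transcription factor and synaptic genes, followed the same libraries. In AAV-SIRT3 against intact 9 of the 16 rose, beside 11.3% of all genes tested that were higher there. In AAV-GFP against intact 2 rose, beside 0.823% of all genes. At an unadjusted limma p under 0.05 there were 13 of 16 there, beside 3707 of the 19443 genes tested. In AAV-SIRT3 against intact there were 11 of 16, beside 6788. For AAV-SIRT3 against AAV-GFP, 0 passed by limma, edgeR or DESeq2. There 0 had an unadjusted limma p under 0.05, beside 2964 of all genes. edgeR and DESeq2 called 6 and 5 of the 16 in AAV-SIRT3 against intact, beside 21% and 23.7% of all genes in either direction. The medians were 0.36, 0.40 and -0.02, and all 16 values were above 0 against intact in both AAV groups. Rgs16, a regulator of G protein signalling, rose by 0.66 (SE 0.189, limma adjusted p = 0.0175) and Synpo2, an actin-binding protein, by 0.65 (SE 0.179, limma adjusted p = 0.0133) in AAV-SIRT3 against intact. Synpo2 rose by 0.72 (limma adjusted p = 0.0409) and Cbln2, a synapse organiser, by 0.21 (limma adjusted p = 0.0425) in AAV-GFP against intact. At the low end, Plcb4 and Cacna1g, the latter a T-type calcium channel, were at 0.08 each in AAV-SIRT3 against intact and did not pass. Intact replicates 1, 3 and 5 were the 3 lowest libraries in 10 of the 16, beside 2.09% of all genes tested. Without them 1 of 16, Cbln2 at 0.23 (limma adjusted p = 0.0224), passed in AAV-SIRT3 against intact and 0 in AAV-GFP against intact, with medians of 0.07 and 0.05.

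By likeness, measured as Pearson's r over 18 libraries with the mean of the 8 genes after centring on group means, the 10 closest of 15237 genes were Ntng1 (0.98), Shox2 (0.97), Plekhg1 (0.97), Ptpn3 (0.97), Synpo2 (0.96), Pdp1 (0.96), Nsmf (0.96), Lrrtm1 (0.96), Xylt2 (0.96) and Vipr2 (0.95). In the 12 AAV libraries alone their r with the 8 genes was between 0.76 for Synpo2 and 0.94 for Shox2, a homeodomain factor. The 16 thalamic genes of the list had a median r of 0.92 over 18 libraries and 0.71 over the AAV libraries, beside -0.01 and 0.02 over all 15237 genes. The lowest r belonged to Dkk3 (-0.93), C130021I20Rik (-0.83), Erfl (-0.82), Gch1 (-0.81) and Neurl1a (-0.79). In the 12 AAV libraries alone their r were -0.94, -0.76, -0.51, -0.40 and -0.68. Gch1 encodes the enzyme that starts synthesis of the cofactor of tyrosine hydroxylase. These r are descriptions, and all points share their libraries. The r over 18 libraries include the intact clusters. For each of the 10 closest genes intact replicates 1, 3 and 5 were the 3 lowest libraries, beside 2.09% of all genes tested. Their r over 18 libraries thus in part restates that split. The 12 AAV libraries are among the 18 used to pick the highest and lowest genes. For the picked genes, r in the AAV libraries is thus in part fixed by the choice.

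The dopaminergic markers ran the other way in the intact group. Th was at 5950, 4623, 6637, 5408, 6449 and 5307 normalised reads in intact replicates 1 to 6, so the 3 libraries lowest in thalamic genes were the highest in Th. For 4 of the 8 dopaminergic markers, Th, Slc6a3, Slc18a2 and Ddc, intact replicates 1, 3 and 5 were the 3 highest of the 18 libraries. All 8 were detected, and their summed normalised reads spanned 40223 to 55032 for intact mice, 35496 to 46177 with AAV-GFP and 41156 to 48661 with AAV-SIRT3. In AAV-GFP against intact 1 of 8 fell, Slc6a3, the dopamine transporter, by 0.44 on the log2 scale (SE 0.0987, limma adjusted p = 0.0263), and the median of the list was -0.30. Of all genes tested, 1.84% were called in either direction there. Without intact replicates 1, 3 and 5 the median was -0.10 and 0 of 8 passed. At an unadjusted limma p under 0.05 there were 6 of 8 in AAV-GFP against intact over all 18 libraries, beside 3707 of the 19443 genes tested. There edgeR called 1 of 8 and DESeq2 2, beside 1.86% and 5.14% of all genes. In AAV-SIRT3 against AAV-GFP limma and edgeR called 0 of 8 and DESeq2 2, beside 0.113%, 0.123% and 1.56% of all genes. With an unadjusted limma p under 0.05 there were 4 of 8, beside 2964 of all genes. In AAV-SIRT3 against intact 0 of 8 passed by limma, edgeR or DESeq2, beside 21.7%, 21% and 23.7% of all genes. There 0 of 8 had an unadjusted limma p under 0.05, beside 6788 of all genes. What part these marker differences have in the thalamic values was not tested.

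Other neighbours of the nigra were read the same way, with few genes a list. For 0 of the tested genes of the habenula (7), subthalamic nucleus (2), superior colliculus and tectum (3) and hippocampus and cortex (8) lists were intact replicates 1, 3 and 5 the 3 lowest or the 3 highest, and the same held for the GABAergic, astrocyte, microglia, newly formed oligodendrocyte and endothelium lists. Over all genes these shares were 2.09% and 0.746%, so counts of 0 in lists this short are near the background. Of these lists the endothelial genes moved in AAV-SIRT3 against intact, where 5 of 8 fell and the median was -0.35, beside 21.7% of all genes called in either direction. Of the microglial genes 3 of 8 rose, C1qa, Aif1 and Tmem119 (median of the list 0.05), and of the GABAergic and astrocyte genes 1 each, Pvalb and Agt. Of the newly formed oligodendrocyte genes 1, Itpr2, fell. Anterior pituitary genes, of which 3 of 4 were tested, fell in both comparisons with intact (medians -4.24 in AAV-GFP and -3.16 in AAV-SIRT3), from a summed level of 501 to 5222 normalised reads in intact libraries to at most 597 in the AAV libraries. Of the choroid plexus genes 2 of 6, Kcnj13 and Mfrp, fell in AAV-SIRT3 against intact. Without intact replicates 1, 3 and 5, 2 endothelial genes (Kdr and Tek), 1 pituitary gene (Pomc) and 1 choroid plexus gene (Mfrp) still fell in AAV-SIRT3 against intact, and C1qa, Aif1, Tmem119, Pvalb and Agt still rose. Whether the pituitary, choroid plexus or endothelial levels bear on the thalamic genes was not tested.

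**Figure D5:**
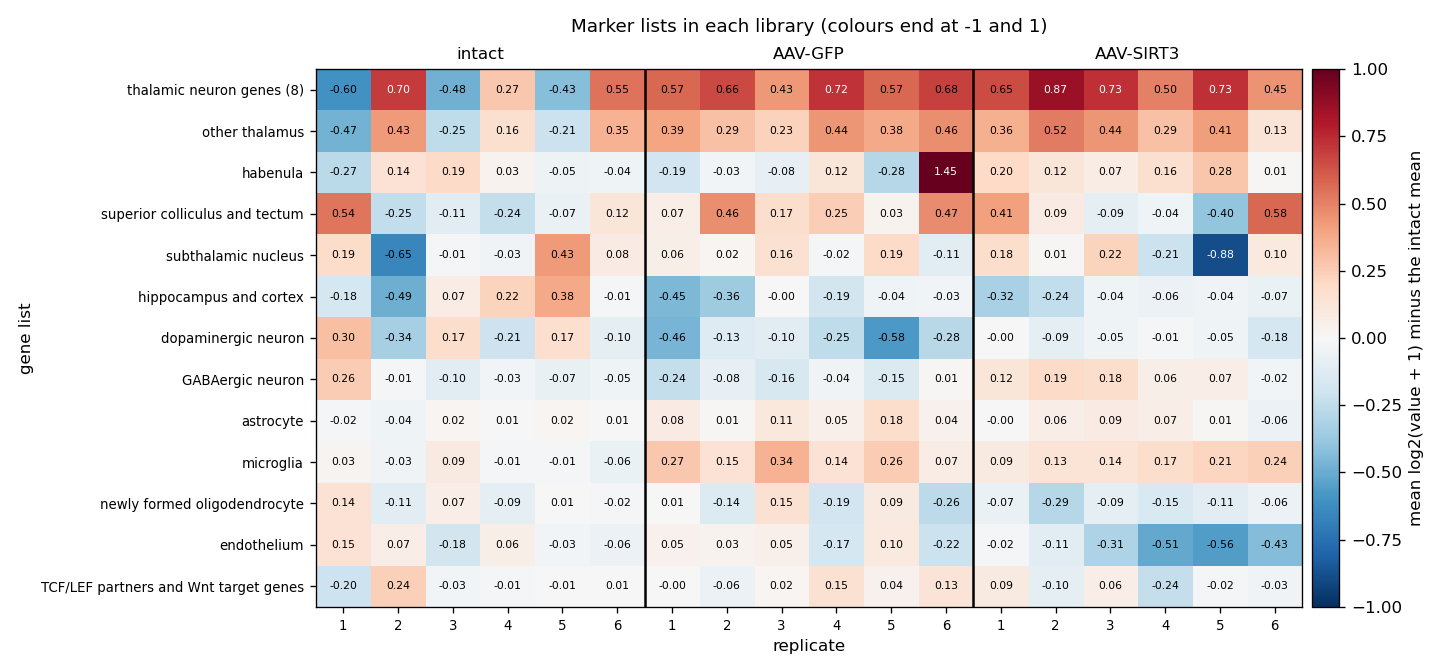
Mean log2(value + 1) relative to the intact mean (colour and printed value) of 13 gene lists (y axis) in each of the 18 libraries (x axis, replicate number within group). The 8 thalamic genes run from -0.60 to 0.70 within the intact group and from 0.43 to 0.87 in the AAV libraries, and the dopaminergic list is highest, at 0.30, in the intact library lowest in thalamic genes.

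The families around the 8 genes were followed as well. None of 12 TCF/LEF partners and Wnt targets passed in any of the 3 comparisons by limma, edgeR or DESeq2. In each comparison 1 at most had an unadjusted limma p under 0.05, beside 2964 to 6788 of the 19443 genes tested. Among them were Tcf7 and Tcf7l1, the other TCF factors (-0.13 and -0.08 in AAV-SIRT3 against intact), Axin2, a feedback target (0.02), and Ctnnb1, the partner beta-catenin (0.06). Tcf7l2 and Lef1 rose over intact in AAV-SIRT3 libraries, a comparison in which 21.7% of all genes were called in either direction. A list of 12 is too short for a count of 0 to show whether their partners and targets moved. Of 18 paralogues and partners, 4 rose and 1 fell in AAV-SIRT3 against intact, a share near the 21.7% of all genes called there. By limma 0 passed in AAV-GFP against intact (4 at an unadjusted p under 0.05, edgeR 1 and DESeq2 2 called) and 0 in AAV-SIRT3 against AAV-GFP (2 at an unadjusted p under 0.05, 0 by the other tools). Over all genes, 3707 and 2964 had an unadjusted limma p under 0.05 in these comparisons. In AAV-GFP against intact edgeR called 1.86% and DESeq2 5.14% of all genes. Prkch rose by 0.52 (limma adjusted p = 0.0244), Rorb by 0.46 (0.00846), Ramp1 by 0.24 (0.00526) and Prkcz by 0.15 (0.00754), and Prkca fell by 0.22 (0.00841). For Prkch, Prkcz and Rorb, but not for Ramp1, intact replicates 1, 3 and 5 were the 3 lowest libraries, and without these libraries Ramp1 alone of the 18 passed (0.28, limma adjusted p = 0.0284).

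Tnnt1 was set beside other genes of slow muscle. Of 5 such genes 4 were tested, and the summed normalised reads of the list were 718 to 823 for intact mice, 736 to 853 with AAV-GFP and 734 to 992 with AAV-SIRT3. Myh7, the slow myosin heavy chain, was at -0.29 in AAV-SIRT3 against intact and did not pass (limma adjusted p = 0.173). Myl2 rose in AAV-SIRT3 against intact by 0.80 (limma adjusted p = 0.0109) at a mean of 72.5 normalised reads or less in each group. Intact replicates 1, 3 and 5 were the lowest libraries for 0 of the 4. VGLUT1, encoded by Slc17a7 and used by cortical and some thalamic neurons, was at 0.26 in AAV-GFP against intact and at 0.12 in AAV-SIRT3 against intact, neither passing (limma adjusted p = 0.360 and 0.623).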

How the data were processed

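The authors deposited 1 table of signal values per gene for 18 libraries of mouse substantia nigra, which per its name are HTSeq read counts normalised by DESeq2. Per the submitters' processing notes, reads were aligned to mm10, and the notes name HISAT2 2.1.0 and DESeq2 1.34.0. The annotation and strand setting are not given in the sources used here. Multiplying each column by a size factor gave whole reads for 100% of values (tolerance 1e-06 reads). The design text gives 6 mice per group, each library is 1 mouse, and no batch or date is named.

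Values were transformed to log2(value + 1), which understates changes of low genes. Genes with at least 10 in at least 6 of 18 libraries (19443) were fitted in R 4.3.3 with limma 3.58.1 in 1 model of 3 groups (trend, 15 residual degrees of freedom), adjusted by Benjamini-Hochberg over all genes in each comparison at 0.05. Alternatives were count tests on the recovered reads (edgeR 4.0.16, DESeq2 1.42.0), TMM and quantile scaling, pseudocounts of 0.5 and 10, other filters, 2-group fits, a replicate block, robust moderation, array weights and leaving out each library. A variance weight per group, the fit without intact replicates 1, 3 and 5 and correlations in the AAV libraries alone were added after seeing the data. Correlations used values centred by group and two-sided permutation within groups with 100000 resamples. The procedure was tested on simulated data.

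The 8 genes, the lists and the tests were chosen with earlier results of these data known. All 8 genes are named. In the list of paralogues and partners, 1 gene is not reported here and was left out of its counts. A list's gene may be named when it passes or is among the 2 highest or lowest fold changes of its list. Genes most like the 8 were sought among those with a mean of at least 50. Genes given for their role in a family (Tcf7, Tcf7l1, Axin2, Ctnnb1, Myh7, Slc17a7) and the per-gene habenula values were picked after their values were seen. The reads carry no molecular identifiers and so are not independent molecules.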

Additional observations from a re-analysis of the deposited data

Results flagged for a closer look

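Each list's mean log2 level relative to intact was examined within each group of 6 for a library far from the others, over 72 groups of values that include the 8 thalamic genes one by one. A library stood apart in 4, where chance gives about 1 in 20, or 3.6. None of the 8 thalamic genes was among the 4 in any group. Within the intact group, replicates 1, 3 and 5 were low together in these genes.

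Habenula genes were highest in AAV-GFP replicate 6, at 1.45 against 0.12 in the next AAV-GFP library, a library whose 8 thalamic genes were at 0.68 within a group range of 0.43 to 0.72. GABAergic genes were highest in intact replicate 1, at 0.26 against -0.01 in the next. Choroid plexus genes were highest in intact replicate 2, at 2.67 against 0.11, and in AAV-GFP replicate 5, at 2.51 against -0.83.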

How the results depend on the processing

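Of 768 refits of single thalamic genes under another setting, 712 kept their direction and side of the threshold, 30 lost a call, 16 gained one and 10 changed sign. In AAV-SIRT3 against AAV-GFP 0 of the 8 genes passed in every setting run. The sign changes there were Lef1 at -0.000642 without AAV-GFP replicate 1 and -0.034 without AAV-SIRT3 replicate 2 (-0.034 to 0.086 with 1 library left out), Rora at 0.0098 with array weights, 0.02 without AAV-GFP replicate 1 and 0.038 without AAV-SIRT3 replicate 6 (-0.067 to 0.038), and Slc17a6 at -0.012 with quantile scaling and -0.0075 without AAV-SIRT3 replicate 3 (-0.0075 to 0.043). Without intact replicates 1, 3 and 5, Rora turned to -0.10 in AAV-GFP against intact and -0.13 in AAV-SIRT3 against intact, and Prkcd to -0.0095 in the latter.

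Of the 8 genes, 1 passed in AAV-GFP against intact. The count was 0 with all genes above 0, in the 2-group fit, with robust moderation, with edgeR and without the 3 low intact libraries. It ran from 0 to 6 when 1 library was left out. In AAV-SIRT3 against intact 6 passed, 5 to 7 with 1 library left out and 0 without the 3 low intact libraries. Over all genes, the 22 called in AAV-SIRT3 against AAV-GFP became 8 in the 2-group fit, 121 with array weights, 304 with DESeq2 and 5 to 861 with 1 library left out. The 358 in AAV-GFP against intact became 164 with all genes above 0, 199 in the 2-group fit, 638 with array weights, 1000 with DESeq2, 10 without the 3 low intact libraries and 129 to 686 with 1 library left out. The 4214 in AAV-SIRT3 against intact became 1686 without the 3 low intact libraries and 3279 to 4633 with 1 library left out. Of 16 correlations with Prkcd, 7 passed over 18 libraries, 6 to 8 with 1 library left out, and 0 in the 12 AAV libraries. The cause of these shifts was not tested.

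Replicate numbers are shared between groups but do not pair the mice. Correlations of same-numbered deviations ran from -0.10 to 0.18 and 1 of 18 was over 0.1. With a replicate block 3 of the 8 genes passed in AAV-GFP against intact, beside 372 of all genes (1.91%). In AAV-SIRT3 against AAV-GFP the block gave 0 of the 8 and 13 of all genes. Depth was not limiting for the 8 genes, whose lowest value was 186 normalised reads.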

Other observations

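In AAV-GFP replicate 6, 5 of the 7 habenula genes had their highest value of the 18 libraries. Gpr151, a receptor of habenular neurons, was at 483 normalised reads there, Chrnb4, a nicotinic receptor subunit, at 299.5, Chrna3 at 704 and Pou4f1, a transcription factor, at 291, and Nwd2 was at 1981. Tac2 and Gng8, the other genes of the 7, were highest in AAV-SIRT3 replicates 5 and 6. The intact means of Gpr151, Chrnb4, Chrna3 and Pou4f1 were 41.0, 62.2, 361 and 109.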
